A study of Drosophila melanogaster with 8 samples.

Results

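The vacuolar proton pump of Drosophila melanogaster was followed through the 31 genes whose platform symbol begins with Vha, of 11982 genes with a single symbol on the array. These genes held 32 of the 18769 probe sets tested, and where a gene had several, the one with the highest mean stood for it. From general knowledge of adult fly tissues, 15 of the genes were listed as broadly expressed subunits and 16 as copies restricted to few tissues. These lists were drawn up with earlier results of these data known. The genes Vha68-1 and Vha68-2, which encode the broadly expressed catalytic A subunit, were not matched to a probe set with a single symbol. The accessory gene once named VhaM8.9 is now ATP6AP2 in the platform annotation, so the rule did not take it in.

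The vacuolar ATPase couples ATP hydrolysis to the movement of protons across membranes. Its cytosolic V1 sector splits ATP and turns a rotor, and its V0 sector in the membrane carries the protons. The pump acidifies lysosomes and endosomes in nearly every cell, and in some fly epithelia, such as the Malpighian tubule, it sits in the plasma membrane and drives ion transport. Several subunits have additional copies in the fly genome, some of which are known for transcription in the testis.

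Hearts of adult flies were profiled on 8 Affymetrix arrays, with 2 arrays in each of 4 groups. The groups combined a cross with an age: GMH5 crossed to yw, called control below, or GMH5 crossed to FOXO, each at 1 week or at 5 weeks. Both crosses therefore carried GMH5, a line that drives transgenes in the heart, and FOXO is a transcription factor acting downstream of insulin signalling. All flies were labelled female and kept at 25C, suction was used to clear fat and pericardial cells from the dissected hearts, and the RNA was amplified before hybridisation. Neither the source of each replicate in separate flies nor the number of hearts pooled is stated in the labels, so p-values reflect the spread between these 8 samples alone, which may be technical. Values are log2 signals as deposited, and the number of arrays limits their precision. A gene is said to have risen or fallen where limma's moderated test gave a Benjamini-Hochberg adjusted p under 0.05 over all 18769 probe sets.

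Some arrays stood apart or went against their labels. The FOXO 1 week replicates correlated at 0.963 across probe sets, against 0.995 to 0.997 in the other groups. On FOXO 1 week replicate 1 the median signal of 10 oocyte and nurse cell markers was 10.65, against 3.96 to 4.91 on the other 7 arrays. The median of 26 late spermatogenesis markers was 8.75 to 8.80 in control 1 week and 9.69 to 9.83 in FOXO 5 weeks, but 4.63 to 6.10 on the other 4 arrays. The 5 female fat body and oenocyte markers had medians of 6.18 to 6.75 on 3 arrays (both of control 1 week, and FOXO 1 week replicate 2) and 13.03 to 13.44 elsewhere. The 7 heart markers matched (of 9; tin and Mhc had no probe set with a single symbol) had array medians of 9.61 to 10.86. None passed in FOXO against control at either age or with age in control. With age in FOXO 1 of the 7 fell, mid, where 5.82% of all probe sets were lower. Averaged over crosses 2 of the 7 fell with age, H15 and mid, where 3.87% of all probe sets were lower. Both are T-box factors of the heart. Signals of mid were 8.69 and 8.45 in control 1 week, 7.98 and 7.52 in control 5 weeks, 8.28 and 8.21 in FOXO 1 week, then 7.40 and 6.90 in FOXO 5 weeks. The signal of foxo itself lay between 10.22 and 10.87 and did not pass the test in either FOXO comparison (log2 fold change -0.05 ± 0.17 (SE) at 1 week and -0.15 ± 0.17 at 5 weeks). Whether its probe set reports the transgene is not stated in the labels.

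Of the 31 Vha genes, 8 rose or fell in at least 1 of the 7 comparisons, and all 8 were restricted copies. None of the 15 broadly expressed subunits did in limma's test, although 12 of them did at 5 weeks once the array medians were centred, a setting in which 51% of all probe sets passed. Because the lists were drawn up with earlier results known, the split between restricted and broad is a description and no test.

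**Figure D1:**
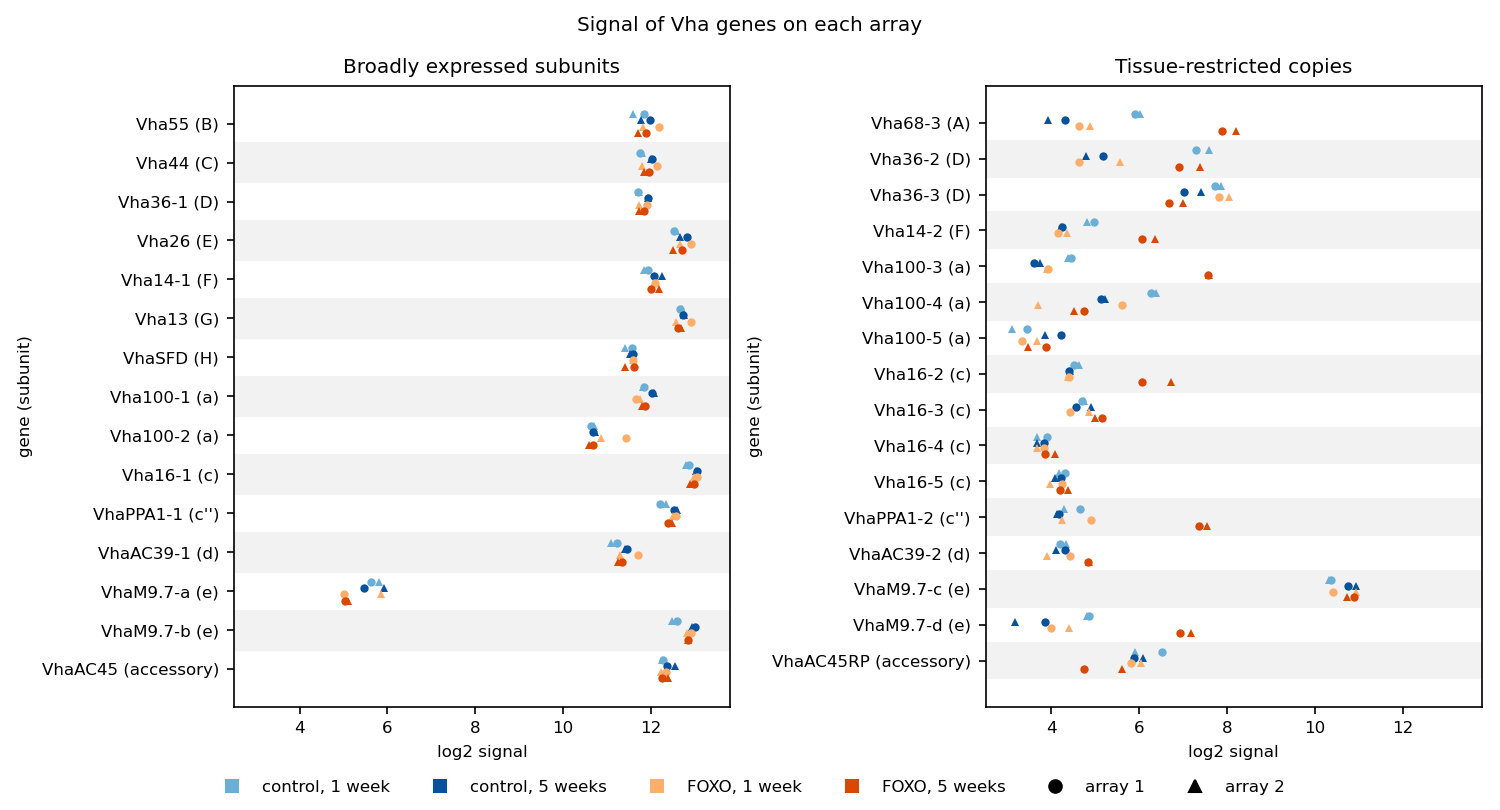
Log2 signal of each Vha gene (vertical axis, with its subunit in brackets) on each of the 8 arrays; colours stand for the groups, circles for array 1 and triangles for array 2 of a group. Among the restricted copies, Vha68-3, Vha14-2, Vha100-3, Vha16-2, VhaPPA1-2 and VhaM9.7-d have both FOXO 5 weeks arrays to the right of the other 6 arrays. So do VhaAC39-2 and Vha16-3, by a smaller margin and without passing the test.

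Among the V1 copies, Vha68-3 encodes an additional form of the catalytic A subunit. Its signal was 5.91 and 6.01 in control 1 week, 4.30 and 3.93 in control 5 weeks, 4.62 and 4.87 in FOXO 1 week, then 7.89 and 8.21 in FOXO 5 weeks. The FOXO 5 weeks arrays were the highest, the control 1 week arrays came next, and no groups overlapped. With age in control Vha68-3 fell by 1.85 ± 0.19 on the log2 scale (SE, adjusted p = 0.00162), and was 3.94 ± 0.19 higher in FOXO than in control at 5 weeks (adjusted p = 2.54e-05).

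Vha36-2 and Vha36-3 encode forms of subunit D, part of the central rotor shaft of V1. Vha36-2 gave 7.29 and 7.59 in control 1 week, 5.18 and 4.78 in control 5 weeks, 4.62 and 5.57 in FOXO 1 week, then 6.90 and 7.39 in FOXO 5 weeks. The arrays fell into a high pair of groups, control 1 week and FOXO 5 weeks, which overlapped, and a low pair, control 5 weeks and FOXO 1 week, which also overlapped. In FOXO it was 2.35 ± 0.34 lower than control at 1 week (log2 fold change -2.35, adjusted p = 0.00966) and 2.16 ± 0.34 higher at 5 weeks (adjusted p = 0.00617).

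Vha36-3 had another order of groups. It gave 7.72 and 7.86 in control 1 week, 7.01 and 7.41 in control 5 weeks, 7.81 and 8.04 in FOXO 1 week, then 6.67 and 7.0 in FOXO 5 weeks. Both 5 weeks groups lay below both 1 week groups, and the 1 week groups overlapped. The age difference passed the test in FOXO (log2 fold change -1.09 ± 0.20, adjusted p = 0.0113) and not in control (-0.58, adjusted p = 0.172). The difference between those age effects, -0.51 ± 0.28, did not pass either (adjusted p = 0.330).

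Vha14-2 encodes a form of subunit F, which sits with D in the rotor shaft. Its signal was 4.97 and 4.82 in control 1 week, 4.24 and 4.22 in control 5 weeks, 4.14 and 4.35 in FOXO 1 week, then 6.07 and 6.36 in FOXO 5 weeks. Only the FOXO 5 weeks arrays lay above 5, and control 5 weeks and FOXO 1 week overlapped. At 5 weeks it was 1.98 ± 0.16 higher in FOXO (adjusted p = 0.00017).

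In the V0 sector, the a subunit holds the path by which protons enter and leave the membrane. Vha100-3, a restricted a subunit, gave 4.45 and 4.37 in control 1 week, 3.61 and 3.73 in control 5 weeks, 3.92 and 3.90 in FOXO 1 week, then 7.57 and 7.58 in FOXO 5 weeks. The replicates were close in every group and no groups overlapped. It was 3.90 ± 0.13 higher in FOXO at 5 weeks (adjusted p = 1.79e-05), and in control it fell by 0.74 ± 0.13 with age (log2 fold change -0.74, adjusted p = 0.0155).

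The c and c'' subunits form the proton-carrying ring. Vha16-2, a copy of c, gave 4.52 and 4.62 in control 1 week, 4.39 and 4.42 in control 5 weeks, 4.40 and 4.37 in FOXO 1 week, then 6.06 and 6.71 in FOXO 5 weeks. VhaPPA1-2, a copy of c'', gave 4.66 and 4.28, then 4.17 and 4.12, then 4.91 and 4.24, and then 7.35 and 7.55 in the same order of groups. In both genes the first 3 groups lay within a narrow span and FOXO 5 weeks stood above them. At 5 weeks the FOXO difference was 1.98 ± 0.22 for Vha16-2 (adjusted p = 0.000823) and 3.31 ± 0.25 for VhaPPA1-2 (adjusted p = 0.000114).

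VhaM9.7-d is a restricted copy of e, a small hydrophobic V0 subunit. It gave 4.85 and 4.80 in control 1 week, 3.86 and 3.16 in control 5 weeks, 3.99 and 4.39 in FOXO 1 week, then 6.92 and 7.17 in FOXO 5 weeks. No groups overlapped, with FOXO 5 weeks the highest and control 5 weeks the lowest. It fell by 1.32 ± 0.26 with age in control (log2 fold change -1.32, adjusted p = 0.0269) and was 3.54 ± 0.26 higher in FOXO at 5 weeks (adjusted p = 0.000101).

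The other 8 restricted copies passed in none of the 7 comparisons. Vha100-4, another a subunit, gave 6.27 and 6.39 in control 1 week, 5.12 and 5.21 in control 5 weeks, 5.60 and 3.69 in FOXO 1 week, then 4.75 and 4.52 in FOXO 5 weeks. Control 1 week was above all other arrays, and the FOXO 1 week replicates differed by 1.91, the widest gap between replicates of any Vha gene. VhaAC39-2, a copy of subunit d, which joins the rotor to the ring, lay at 4.83 and 4.85 in FOXO 5 weeks and at 3.91 to 4.42 on the other arrays, a difference at 5 weeks of 0.63 ± 0.20 with an adjusted p of 0.104. VhaAC45RP, related to the accessory subunit VhaAC45, was lowest in FOXO 5 weeks at 4.73 and 5.60 and reached 6.51 in control 1 week (-0.83 ± 0.32 at 5 weeks, adjusted p = 0.176). Vha100-5 ranged from 3.11 to 4.22, Vha16-3 from 4.43 to 5.14, Vha16-4 from 3.67 to 4.09 and Vha16-5 from 3.97 to 4.38. VhaM9.7-c, listed as restricted, gave 10.31 to 10.94.

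The mean signal of 10 of the 31 Vha genes lay within the dimmest 40% of all probe sets, under 5.16, and all 10 were restricted copies. They include Vha100-3, Vha14-2, Vha16-2, VhaM9.7-d and VhaPPA1-2, whose signal in the lower groups may be close to background, since no detection calls came with the values. In bulk tissue, fewer cells of a type and less RNA per cell cannot be told apart.

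At 5 weeks, 7 of the 31 Vha genes were higher in FOXO than in control and none was lower: Vha68-3, Vha36-2, Vha14-2, Vha100-3, Vha16-2, VhaPPA1-2 and VhaM9.7-d. Over all probe sets 10.4% passed in either direction, and 7.35% were higher in FOXO. The median log2 fold change of the 16 restricted copies was 0.48, against -0.16 over all probe sets. Leaving out control 5 weeks replicate 2 or FOXO 5 weeks replicate 2 ended the call of Vha36-2 (adjusted p up to 0.0653). The calls of the other 6 held without each array in turn.

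In FOXO, the same 7 genes rose from 1 week to 5 weeks and Vha36-3 fell, 8 of 31 where 15.2% of all probe sets passed, 9.43% higher and 5.82% lower. The rises were 3.66 ± 0.13 for Vha100-3, 3.31 ± 0.19 for Vha68-3, 2.88 ± 0.25 for VhaPPA1-2, 2.86 ± 0.26 for VhaM9.7-d, 2.05 ± 0.34 for Vha36-2, 2.0 ± 0.22 for Vha16-2 and 1.96 ± 0.16 for Vha14-2, with adjusted p from 2.54e-05 to 0.00723. The call of Vha36-2 was lost without FOXO 5 weeks replicate 2 and in a fit to the 4 FOXO arrays alone (adjusted p up to 0.0647). That of Vha36-3 was lost without FOXO 5 weeks replicate 1, in the fit to the 4 FOXO arrays and with array weights (adjusted p up to 0.0827). This comparison and that at 5 weeks share the FOXO 5 weeks arrays.

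In control, 4 of 31 Vha genes were lower at 5 weeks than at 1 week and none was higher, with 6.91% of all probe sets passing and 4.57% lower. These were Vha36-2 (-2.46 ± 0.34, adjusted p = 0.00583), Vha68-3, VhaM9.7-d and Vha100-3. The median of the restricted copies was -0.27, against 0.05 over all probe sets. Vha68-3 kept its call without each array in turn. Vha100-3 lost its call without any 1 of the 4 control arrays (adjusted p up to 0.158), and Vha36-2 without control 1 week replicate 2 or control 5 weeks replicate 2 (up to 0.068). VhaM9.7-d lost its call without either control 1 week array, control 5 weeks replicate 2 or either FOXO 5 weeks array, and with the replicate number as a block (up to 0.182). Without FOXO 1 week, whose replicates differed most, 9 Vha genes passed where 17.5% of all probe sets did: these 4, with Vha14-2 and Vha100-4 also lower and Vha100-5, VhaM9.7-b and VhaM9.7-c higher.

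At 1 week, Vha36-2 and Vha68-3 were lower in FOXO than in control, 2 of 31 where 4.33% of all probe sets passed and 3.87% were lower. Vha68-3 differed by -1.22 ± 0.19 (adjusted p = 0.0147). Both calls were lost without either control 1 week array and in a fit to the 4 arrays at 1 week, and that of Vha68-3 also with array weights, with adjusted p up to 0.103 for Vha36-2 and 0.136 for Vha68-3. Without FOXO 1 week replicate 1, the array with oocyte transcripts, both held. Without FOXO 1 week replicate 2, 8 of the 31 Vha genes passed where 28.6% of all probe sets did, with Vha100-3, Vha14-2, Vha100-4 and the broadly expressed VhaM9.7-a also lower, and the broadly expressed Vha100-2 and VhaAC39-1 higher.

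**Figure D2:**
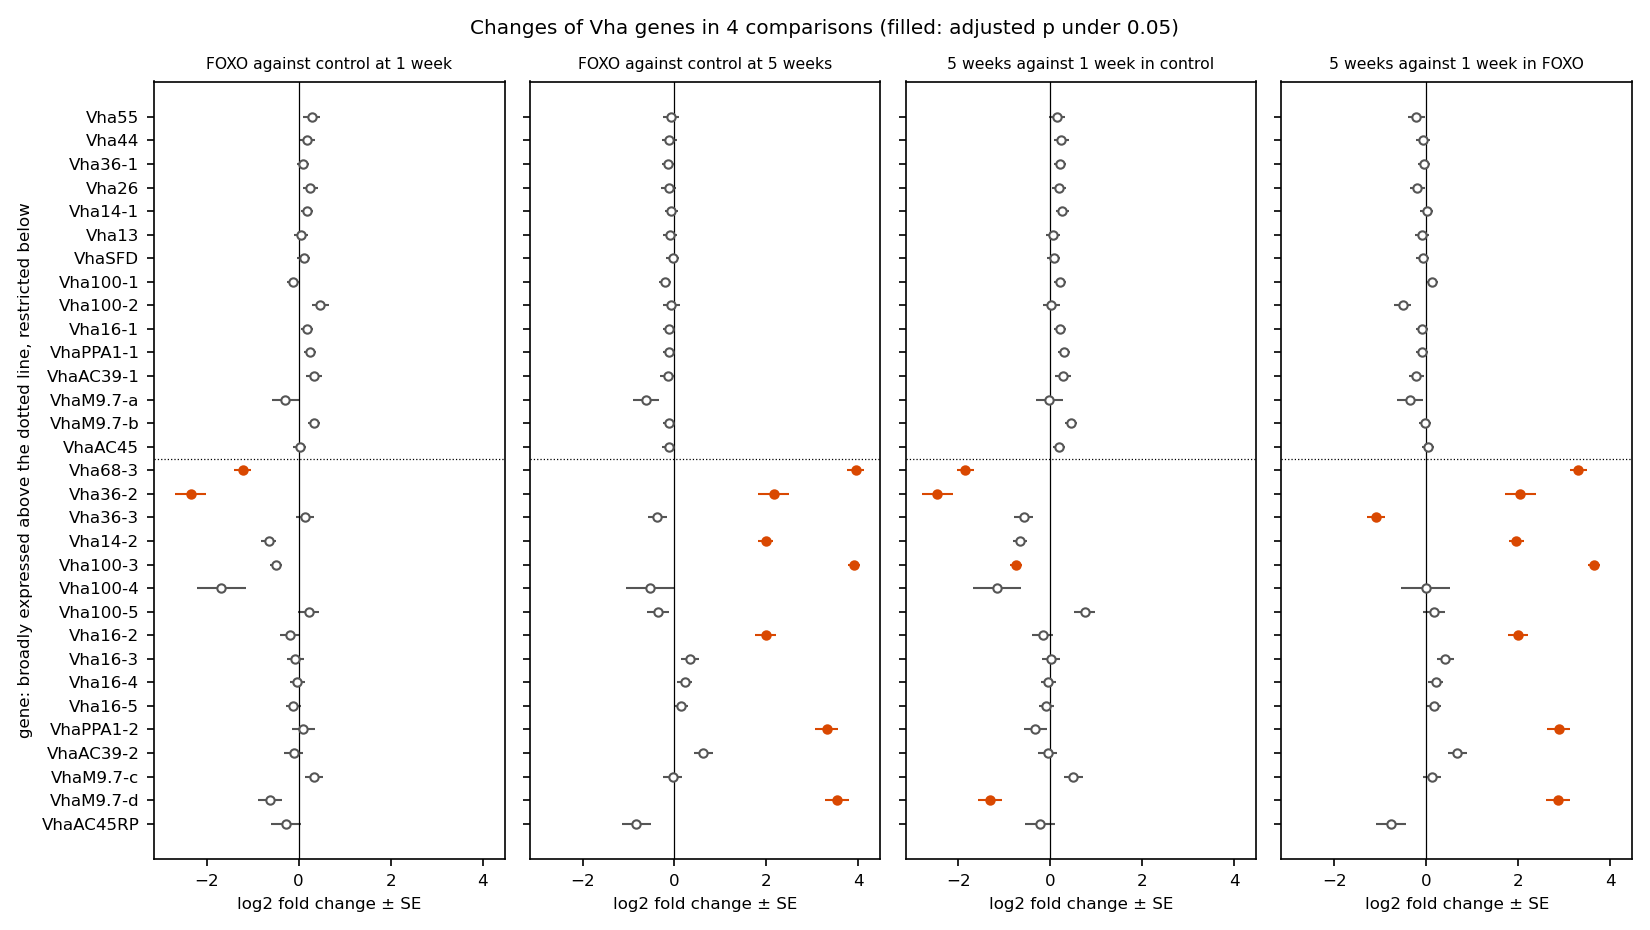
Log2 fold change of each Vha gene in 4 comparisons, with bars of 1 SE from the fit over all 8 arrays; filled points have an adjusted p under 0.05, and the dotted line separates broadly expressed subunits from restricted copies. All filled points lie below that line, 2 at 1 week, 7 at 5 weeks, 4 with age in control and 8 with age in FOXO.

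The FOXO effect at 5 weeks exceeded that at 1 week for the same 7 restricted copies, where 9.41% of all probe sets passed and 7.28% in this direction. It was 5.15 ± 0.27 for Vha68-3, 4.51 ± 0.48 for Vha36-2, 4.41 ± 0.18 for Vha100-3, 4.17 ± 0.37 for VhaM9.7-d, 3.20 ± 0.35 for VhaPPA1-2, 2.63 ± 0.23 for Vha14-2 and 2.16 ± 0.31 for Vha16-2, with adjusted p from 1.53e-05 to 0.0036. These 7 calls held without each array in turn. Averaged over the ages, 6 Vha genes were higher in FOXO (6.22% of all probe sets passed, 4.43% higher), and averaged over the crosses 6 were higher and Vha36-3 lower at 5 weeks (11.5% passed, 7.67% higher and 3.87% lower). Since the effects at the 2 ages or in the 2 crosses ran in opposite directions for several of these genes, the averages describe no single group.

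The broadly expressed subunits moved little. The catalytic partner Vha55 (subunit B) ranged over the arrays from 11.60 to 12.18. Vha44 (C), which helps to hold V1 on V0, ranged from 11.76 to 12.14, and VhaSFD (H), which regulates the joining of the sectors, from 11.40 to 11.62. The rotor subunits Vha36-1 (D) and Vha14-1 (F) ranged from 11.70 to 11.93 and from 11.85 to 12.24. The outer stalk subunits Vha26 (E) and Vha13 (G) gave 12.50 to 12.92 and 12.57 to 12.90. Vha55 had the widest range of these 7 V1 subunits, 0.58.

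In V0, the ring subunits Vha16-1 (c) and VhaPPA1-1 (c'') ranged from 12.80 to 13.05 and from 12.21 to 12.60. VhaAC39-1 (d) ranged from 11.08 to 11.70, Vha100-1 (a) from 11.66 to 12.06, and the accessory subunit VhaAC45 from 12.22 to 12.54. Vha100-2 (a) gave 11.42 on FOXO 1 week replicate 1 and 10.59 to 10.87 on the other 7 arrays. That array was also the one with the oocyte markers, and their part in the value was not tested. VhaM9.7-b (e) gave 12.59 and 12.48 in control 1 week and 12.82 to 13 on the other 6 arrays, so that control 1 week lay below all of them. VhaM9.7-a, listed as broadly expressed, gave 5.00 to 5.92. The second probe set of Vha16-1 ranged from 11.97 to 12.68 and was not called either.

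None of the 15 broadly expressed subunits passed limma's test in any comparison. At an unadjusted p under 0.05, 2 did at 1 week (Vha100-2 and VhaM9.7-b), where 15.6% of all probe sets did, and 0 at 5 weeks, where 24.4% did. With age in control 1 did (VhaM9.7-b, against 18.7% of all probe sets), with age in FOXO 1 (Vha100-2, against 32%) and in the difference of effects 1 (VhaM9.7-b, against 22.8%). VhaM9.7-b was 0.44 ± 0.13 higher with age in control (adjusted p = 0.117), and it passed there without the FOXO 1 week group or either of its arrays, with array weights, with a trended robust prior, in a fit to the 4 control arrays and with array medians centred. VhaM9.7-a differed by -0.62 ± 0.29 at 5 weeks (adjusted p = 0.251), and it passed there as lower in FOXO without the FOXO 1 week group or either of its arrays, and with array medians centred.

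Their direction nevertheless differed between comparisons. At 1 week 13 of 15 were higher in FOXO (median 0.19, against 0.04 over all probe sets), and in 10 the groups did not overlap, as for 24.4% of all probe sets. With age in control 14 of 15 were higher (median 0.21 against 0.05), and in 11 the groups did not overlap, as for 34.1%. At 5 weeks all 15 were lower in FOXO, with a median of -0.13 that was close to the -0.16 over all probe sets, and in 9 the groups did not overlap, as for 45.1%. These comparisons share the control arrays, and 13 of the 15 subunits were higher on FOXO 1 week replicate 1 than on replicate 2. Without replicate 1 the median at 1 week was 0.13, and 12 of 15 were higher.

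**Figure D3:**
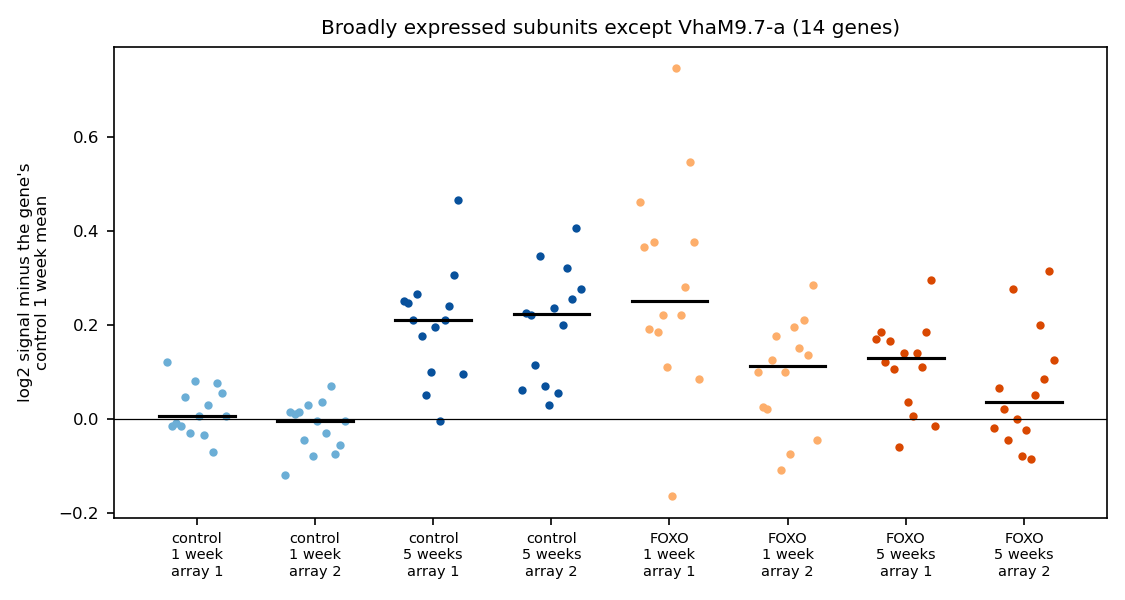
Log2 signal of 14 broadly expressed subunits (VhaM9.7-a, at low signal, is left out) minus the gene's control 1 week mean, on each of the 8 arrays; each point is a gene and each bar the median of an array. The medians are 0.21 and 0.22 in control 5 weeks, 0.25 and 0.11 in FOXO 1 week, then 0.13 and 0.04 in FOXO 5 weeks.

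Whether these small differences passed depended on the scaling of the arrays. The FOXO 5 weeks arrays had the highest medians over all probe sets, 6.40 and 6.43 against 6.05 to 6.22. Centring the array medians moved the median log2 fold change of all probe sets at 5 weeks from -0.16 to -0.52 and that of the broadly expressed subunits from -0.13 to -0.49, and 12 of the 15 were then lower, with 51% of all probe sets passing. Relative to all probe sets the subunits stood where they did before. Under the same centring 7 of 15 were lower with age in FOXO, where 50.2% of all probe sets passed, and 14 of 15 in the difference of effects, where 47.9% did. The 7 restricted copies were higher under both scalings.

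Restricted copies were also set against the broadly expressed copy of the same subunit on the same array. This takes out a shift common to all probe sets of an array. A shift that depends on the level of signal would remain. This fit was added after the data were seen and could be made for 15 restricted copies and 8 broadly expressed ones. At 5 weeks 6 of the 15 were higher in FOXO relative to their broad copy. The share of all probe sets that passed in this comparison was 8.56% relative to Vha36-1, 8.86% relative to Vha14-1, 9.39% relative to Vha100-1, 9.11% relative to Vha16-1, 8.89% relative to VhaPPA1-1, 7.87% relative to VhaAC39-1, 8.89% relative to VhaM9.7-b and 8.57% relative to VhaAC45. The log2 fold change of Vha100-3 minus that of Vha100-1 was 4.11 ± 0.13 (limma adjusted p = 9.35e-06). This difference of fold changes was 3.67 ± 0.26 for VhaM9.7-d and VhaM9.7-b, and 3.43 ± 0.26 for VhaPPA1-2 and VhaPPA1-1. It was 2.31 ± 0.38 for Vha36-2 and Vha36-1, 2.09 ± 0.24 for Vha16-2 and Vha16-1, and 2.05 ± 0.18 for Vha14-2 and Vha14-1. Vha68-3 had no broad copy to be set against.

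With age in FOXO, 7 of the 15 copies were higher and Vha36-3 lower relative to the broad copy. Here the shares of all probe sets were 12.7% relative to Vha36-1, 13.3% relative to Vha14-1, 21.6% relative to Vha100-1, 13% relative to Vha16-1, 12.5% relative to VhaPPA1-1, 10.1% relative to VhaAC39-1, 13.2% relative to VhaM9.7-b and 13.3% relative to VhaAC45. The log2 fold change of VhaAC39-2, which had not passed by itself, exceeded that of VhaAC39-1 by 0.89 ± 0.22 (limma adjusted p = 0.0346). That of Vha36-3 was below that of Vha36-1 (-1.05 ± 0.24, adjusted p = 0.0252). The fold change of VhaM9.7-c minus that of VhaM9.7-b was 0.09 ± 0.23 at 5 weeks and 0.15 ± 0.23 with age in FOXO, and did not pass.

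The late spermatogenesis markers shared some of the changes of the 7 copies. Of the 26 markers matched from a list of 29, all 26 were higher in FOXO at 5 weeks (7.35% of all probe sets were). With age, 25 rose in FOXO (9.43% of all probe sets did) and 21 fell in control (4.57%). At 1 week 21 were lower in FOXO (3.87%). Of the 7 copies, 4 fell with age in control and 2 were lower in FOXO at 1 week. Vha14-2, Vha16-2 and VhaPPA1-2 passed in neither of these 2 comparisons. Nor did the markers dj, d-cup, p-cup, Prosalpha6T and Prosalpha4T1. Vha14-2 gave -0.65 at 1 week (limma adjusted p = 0.0943) and -0.66 with age in control (0.0612). Relative to Vha14-1 it passed in both, at -0.83 (0.0372, with 4.85% of all probe sets passing) and -0.92 (0.0162, with 8.24%). Vha16-2 and VhaPPA1-2 did not pass in these comparisons relative to their broad copies. The marker Mst77F, a sperm chromatin protein, gave 10.54 and 10.70 in control 1 week, 6.30 and 6.43 in control 5 weeks, 6.72 and 7.74 in FOXO 1 week, then 11.80 and 11.91 in FOXO 5 weeks. The part of testis or sperm RNA in the signal of the restricted copies was not tested.

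The copies varied among themselves in how FOXO 5 weeks compared with control 1 week. FOXO 5 weeks minus control 1 week, the 2 groups with high spermatogenesis markers, was 3.16 for Vha100-3, 2.98 for VhaPPA1-2, 2.22 for VhaM9.7-d, 2.09 for Vha68-3, 1.81 for Vha16-2, 1.32 for Vha14-2, -0.29 for Vha36-2 and -0.95 for Vha36-3 (differences of group means on the log2 scale, with no test). The markers had a median difference of 0.73 and ran from -2.27 (Pif2) to 3.46 (tHMG1). A common source of the copies and the markers was not tested.

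**Figure D4:**
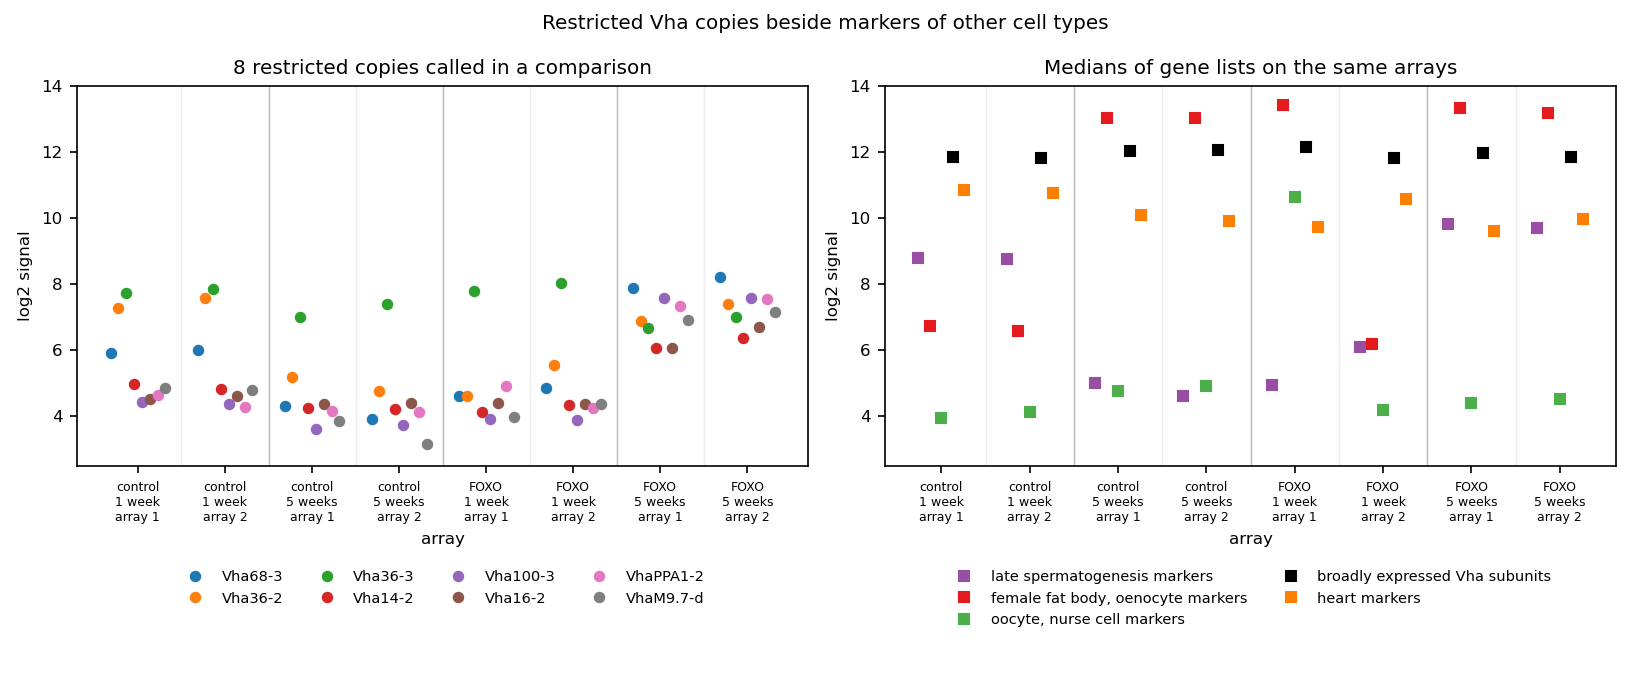
Left, log2 signal of the 8 restricted copies that passed the test in some comparison, on each of the 8 arrays. Right, the median log2 signal of marker lists and of the broadly expressed Vha subunits on the same arrays: late spermatogenesis markers are high in control 1 week and FOXO 5 weeks, and oocyte markers are high on FOXO 1 week replicate 1.

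Markers of 2 tissues rich in the pump were also read. The 7 Malpighian tubule markers matched had array medians of 3.97 to 5.03. Of these, ZnT35C gave 11.57 on FOXO 1 week replicate 1 and 4.09 to 6.17 on the other 7 arrays. At 5 weeks 1 tubule marker, Irk3, was lower in FOXO, as were 576 of all 18769 probe sets. The 9 gut markers had medians of 6.94 and 7.05 in control 5 weeks and 4.86 to 6.40 elsewhere. With age, 5 of the 9 rose in control, where 2.34% of all probe sets were higher, and 5 of the 9 rose in FOXO, where 9.43% were. The broadly expressed subunits had a positive fold change in 14 of 15 with age in control, as did 57.5% of all probe sets. With age in FOXO 12 of 15 had a negative one, where 35.8% of all probe sets had a positive one. Their median there was -0.09, against -0.15 over all probe sets. The part of gut RNA in the signal of the subunits was not tested. At 5 weeks 1 gut marker was higher in FOXO, as were 1380 of all 18769 probe sets, and 4 were lower, as were 576.

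Some copies lie side by side. In the reference annotation of assembly Release 6 plus ISO1 MT, which was used only for the order of genes, no coding gene lies between Vha68-2 and Vha68-3, between Vha16-3 and Vha16-2, or between Vha100-4 and Vha100-2, and 1 lies between VhaPPA1-2 and VhaPPA1-1. At 5 weeks Vha16-2 was higher in FOXO by 1.98 and Vha16-3 by 0.34 ± 0.19 without passing, and VhaPPA1-2 differed by 3.31 where VhaPPA1-1 differed by -0.13.

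Of 18 genes listed as partners of the pump, 14 were matched. Among regulators of assembly and of lysosomal genes, Rbcn-3B, Mitf, mtd and CG5969 passed in no comparison. raptor, a part of the TOR complex that senses nutrients at the lysosome, fell with age in FOXO (log2 fold change -0.81 ± 0.16, adjusted p = 0.0143). Its signal was 5.18 and 5.22 in FOXO 1 week and 4.28 to 4.93 elsewhere, and its call was lost without FOXO 5 weeks replicate 2, with array weights and in a fit to the 4 FOXO arrays (adjusted p up to 0.105). ClC-b, a vesicular chloride channel that balances the charge of pumped protons, was 10.59 and 10.60 in control 1 week and 11.24 and 11.23 in control 5 weeks, a rise of 0.64 ± 0.14 (adjusted p = 0.0445) that was lost without any 1 control array or either FOXO 5 weeks array, and with the replicate number as a block (up to 0.268). In the difference of effects raptor was lower too (-1.10 ± 0.22, adjusted p = 0.0216). ClC-b and Nhe1, a sodium/proton exchanger, were higher with age averaged over crosses (0.50 ± 0.10, adjusted p = 0.0234, and 0.48 ± 0.12, adjusted p = 0.043). These 3 calls were lost without single arrays (adjusted p up to 0.117 for raptor, 0.108 for ClC-b and 0.174 for Nhe1 over all alternatives), each without either control 1 week array. Of the 14 partners, 1 thus passed with age in control, where 6.91% of all probe sets did, and 1 with age in FOXO (15.2%). In the difference 1 passed (9.41%) and with age averaged over crosses 2 (11.5%). In limma's test of FOXO against control 0 passed at 1 week (4.33%) and 0 at 5 weeks (10.4%). At an unadjusted p under 0.05 in that test, CG5969, raptor, ClC-a and Nha2 passed at 1 week, where 15.6% of all probe sets did. At 5 weeks raptor did (24.4%). On FOXO 1 week replicates 1 and 2, ClC-a gave 9.93 and 10.78, and Nha2 gave 9.06 and 10.35. ATP6AP2, the accessory subunit outside the rule, gave 11.23 and 11.43 in control 1 week and 11.52 to 11.93 on the other arrays (0.52 ± 0.14 with age in control, adjusted p = 0.0908).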

How the data were processed

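Transcripts were measured on 8 arrays of dissected hearts, grouped by the cross and age in the labels. The authors deposited log2 values, 1 per probe set. Their range shows the log scale, with summarisation and normalization not given in the sources used. Per the submitters' processing notes limma was used, with no version named. Of the probe sets, 183 array controls were left out and 18769 were tested; 13647 carried 1 symbol, 402 several and 4720 none, in the platform annotation.

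A model with 1 mean per group (limma 3.58.1, R 4.3.3, lmFit and eBayes, 4 residual degrees of freedom) gave 7 two-sided contrasts with Benjamini-Hochberg adjustment over all probe sets. Every Vha gene is accounted for, those passing in any contrast are named with values, and the rest are given by range. The members, the lists of broad and restricted copies, markers and partners were chosen with earlier results of these data known. 6 member probe sets are of a type that can match several transcripts, so their signal may be shared with other genes. They are those of Vha100-1, Vha100-2, Vha26, Vha44, Vha55 and VhaAC45, all listed as broadly expressed.

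Alternatives were quantile normalization, centred array medians, the dimmest 40% left out, arrayWeights, a trended and robust eBayes prior, the lower probe set of a gene, 1 probe set per gene, the replicate number as a block, a threshold of 0.1, fits to fewer groups, and each array left out. The fit relative to the broad copy was added after seeing the data. The procedure was tested on simulated data. Promoter sequences were not analysed here.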

Additional observations from a re-analysis of the deposited data

Results flagged for a closer look

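The FOXO effect differed between the ages, by the test of the difference itself, for 7 restricted copies. FOXO effect at 5 weeks minus that at 1 week, on the log2 scale, was 5.15 ± 0.27 (SE) for Vha68-3 (limma adjusted p = 2.72e-05), 4.51 ± 0.48 for Vha36-2 (0.000778), 4.41 ± 0.18 for Vha100-3 (1.53e-05) and 4.17 ± 0.37 for VhaM9.7-d (0.000256). It was 3.20 ± 0.35 for VhaPPA1-2 (limma adjusted p = 0.000885), 2.63 ± 0.23 for Vha14-2 (0.000241) and 2.16 ± 0.31 for Vha16-2 (0.0036). The spermatogenesis markers had a median difference of 7.40 in the same test, and 25 of 26 passed, where 9.41% of all probe sets did. With 2 arrays per group, the values of a gene alone cannot show which array of a group is outlying. In FOXO 1 week, a part of this difference, the replicates correlated at 0.963, against 0.995 to 0.997 in the other groups. Its replicate 1 had an oocyte and nurse cell marker median of 10.65, against 4.20 on replicate 2.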

How the results depend on the processing

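Of 822 values of 46 named gene results under an alternative, 730 kept their call, 92 lost it and 0 changed direction. Leaving out each array in turn gave 0 to 8 Vha genes at 1 week, 6 to 10 at 5 weeks, 1 to 9 with age in control, 7 to 11 with age in FOXO, 7 to 9 in the difference of effects, 4 to 10 for FOXO averaged over ages and 2 to 11 for age averaged over crosses. The last 2 highest counts, and the 8 at 1 week, came without FOXO 1 week replicate 2, where 27%, 31% and 28.6% of all probe sets passed and the lone array left in that group is assumed to vary like the others. With array medians centred, 22 passed at 5 weeks (7 higher, 15 lower), 16 with age in FOXO (7 higher, 9 lower) and 24 in the difference (7 higher, 17 lower), beside 51%, 50.2% and 47.9% of all probe sets. With the dimmest 40% left out, 10 Vha genes were not tested and 21 were. The counts were then 2 at 5 weeks (10.2% of the probe sets left), 2 with age in control, 3 with age in FOXO and 2 in the difference. For FOXO averaged the count was 1, and for age averaged it was 2. Array weights gave 1 at 1 week and 10 with age in control (19.6% of all probe sets). Fits to the 4 compared arrays gave 0 at 1 week (1.46%), where 2 had passed, and 9 with age in control (19.3%). Leaving out the FOXO 1 week group gave 10 at 5 weeks, where 22.8% of all probe sets passed against 10.4% in the main fit. It gave 9 with age in control (17.5%). At least 1 broadly expressed subunit passed in 19 of 125 counts over alternatives. Where no cause is named, it was not tested.

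With the replicate number as a block, 2, 7, 3, 8, 7, 6 and 6 Vha genes passed, in the order of the comparisons above. Of all probe sets, 3.96% passed in that fit at 1 week and 10.1% at 5 weeks. Replicate differences of pairs of groups correlated across probe sets at 0.013 to 0.332, so with 2 numbers the data do not establish a pairing. Relative to the broad copy, VhaM9.7-d lost its call for age averaged over crosses (0.56, adjusted p = 0.0667). The signal over background of the dim copies cannot be judged from these values.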
